A study of Mus musculus with 10 samples.

Results

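The regions described here are the differentially methylated regions (DMRs) of F1 mouse sperm whose listed gene was Nbea, Gria4, Cbln2, Disc1, Pcdh18 or Pcdh20, which are genes of synapses and of adhesion between neurons. They were chosen by gene symbol from the authors' DMR table, with the contents of that table already known, and the rule kept 7 of its 389 distinct regions (11 of its 465 rows, because a region has a row for each listed transcript). Disc1 had 2 regions and the other 5 genes had 1 each, on 5 chromosomes. Sperm DNA of 5 control and 5 arsenic males (F1, strain C3H/HeN) was measured by reduced representation bisulfite sequencing (RRBS), in which DNA is cut by MspI at CCGG and methylated cytosines are read out after bisulfite treatment. The control males were born to control dams, and the arsenic males were born to dams given water with 85 ppm sodium arsenite from gestational day 8 to 18. All the males were 15 to 17 weeks old in the sample labels, and only the dams were treated. Sperm had been squeezed from the cauda epididymis and spun down, and its freedom from other cells could not be checked with a table of DMRs. The table gives 1 methylation difference per region and 0 columns of single mice, so no SD, interval, coverage or test between mice can be given for any value below. It also does not say which group was subtracted from which, and each difference is therefore given with its deposited sign, as positive or negative. The symbols were picked from a list already selected on a difference between the groups, so the differences are descriptions and support nothing about these genes as a set.

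The 6 genes encode proteins of synapses, of cell adhesion or of neuronal development. Gria4 encodes GluA4, a subunit of the AMPA receptors that carry fast glutamate transmission, and Nbea encodes neurobeachin, a large BEACH domain protein that helps to bring receptors to the synaptic membrane. Cbln2 encodes cerebellin 2, a secreted protein that bridges presynaptic neurexins and postsynaptic receptors, while Pcdh18 and Pcdh20 encode protocadherins that lie outside the clustered protocadherin arrays. Disc1 encodes a scaffold protein of neuronal migration, centrosomes and synapses. Sperm form no synapses, and what was measured was methylation of DNA near the genes, not their expression.

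The reference sequence of 6 regions is shown because their CpG sites can be seen in it, though not which of those sites were read. It was taken from the plus strand of GRCm38 (mm10), which is a C57BL/6J genome and not that of C3H/HeN, and the letters of CpG sites are in capitals. A single capital at an end is one base of a CpG whose other base lies just outside the listed region. Gria4, chr9:4896729-4896995, Nbea, chr3:56666473-56666553, Pcdh20, chr14:88822388-88822409, and Pcdh18, chr3:50053795-50053913, are followed by the Disc1 regions of intron 1, chr8:125073363-125073438, and of intron 10, chr8:125227232-125227316.
Gria4: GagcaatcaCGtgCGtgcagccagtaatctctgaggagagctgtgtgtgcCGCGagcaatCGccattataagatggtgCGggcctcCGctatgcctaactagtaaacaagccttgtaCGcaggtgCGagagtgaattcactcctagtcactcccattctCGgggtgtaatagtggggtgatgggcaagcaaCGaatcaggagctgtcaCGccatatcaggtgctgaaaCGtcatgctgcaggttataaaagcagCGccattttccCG
Nbea: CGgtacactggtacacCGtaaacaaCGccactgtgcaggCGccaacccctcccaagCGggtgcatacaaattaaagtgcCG
Pcdh20: CGagattggattggagcaggCG
Pcdh18: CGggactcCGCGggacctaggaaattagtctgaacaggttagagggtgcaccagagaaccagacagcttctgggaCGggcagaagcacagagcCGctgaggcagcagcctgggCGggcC
Disc1, intron 1: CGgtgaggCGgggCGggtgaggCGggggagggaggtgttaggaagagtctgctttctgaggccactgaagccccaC
Disc1, intron 10: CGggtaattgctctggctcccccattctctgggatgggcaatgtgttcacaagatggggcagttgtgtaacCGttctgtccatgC
The Gria4 region held 16 CpG sites, spread over its whole 267 bases with at most 37 bases between neighbours. The Disc1 region of intron 1 had 4 of its 5 sites in a G-rich start (the last lay 53 bases further on), and the Disc1 region of intron 10 had 3 sites with a gap of 71 bases.

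**Figure D1:**
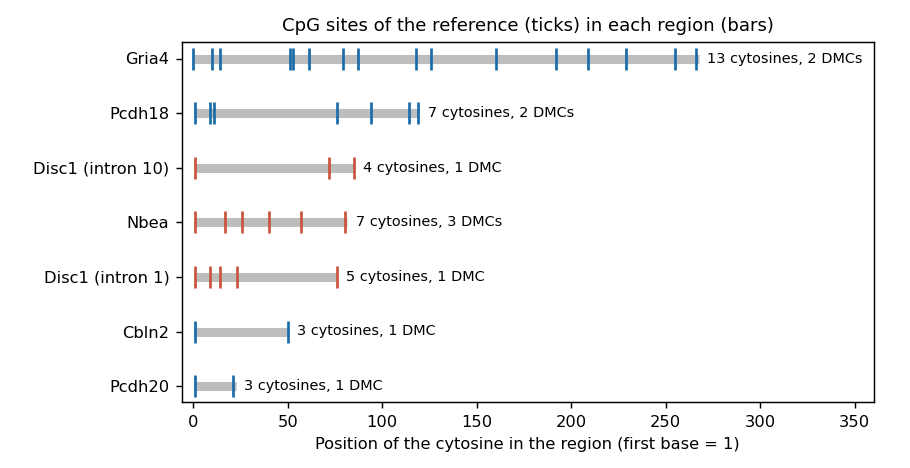
CpG sites of the GRCm38 reference in the 7 regions. The x axis is the position in bases from the start of the region, grey bars are the regions, ticks are CpG sites in blue for a positive and red for a negative difference, and the text gives the deposited numbers of CpG cytosines and differentially methylated cytosines (DMCs). The Gria4 region is the longest, with 16 sites, and the Pcdh20 and Cbln2 regions hold 2 sites each.

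Of the 7 regions, 4 had a positive difference (Gria4, Cbln2, Pcdh20 and Pcdh18) and 3 a negative one (Nbea and both of Disc1). Of all 389 regions 82.8% were positive. The sizes ran from 10.7 to 24.7 percentage points, with a median of 12.0 points against 11.8 points over all 389 regions, so the median member was close to the median of the table. Regions of 15 points or more made up 17.0% of the table, and 2 of the 7 were that large (Gria4 and Nbea). The smallest size in the table was 10.0 points, which is the minimum set in the study's methods, and the Pcdh18 and intron 10 Disc1 regions lay less than 1 point above it.

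**Figure D2:**
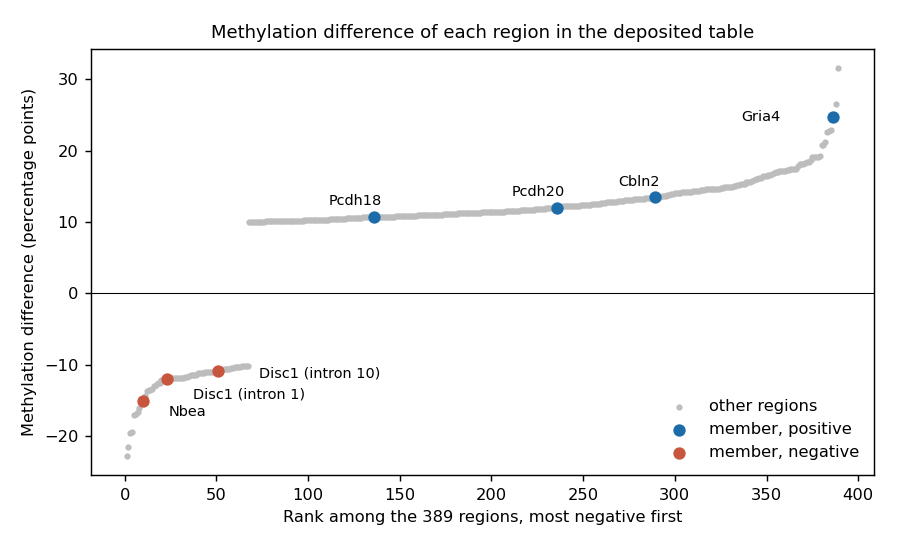
Methylation difference in percentage points (y axis) of all 389 regions, ranked from the most negative to the most positive (x axis). Each point is 1 region; grey points are the other regions, and the 7 regions of the 6 genes are blue where positive and red where negative. Gria4 at 24.7 points stands near the upper end, Nbea at -15.2 points near the lower end, and the other 5 within 10.7 and 13.5 points of 0.

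The regions listed for Gria4 and Nbea had the 2 largest differences of the 7. Both were intergenic, with 93.6% and 55.6% of their bases repeat-masked. The region listed for Gria4 had a difference of 24.7 points, the 4th largest of the 389 regions in size and the 4th of 322 positive regions. It rested on 13 CpG cytosines, of which 2 were DMCs, and it lay 100.5 kb upstream of the transcription start site (TSS), in intergenic sequence. The table counts cytosines of either strand, so that its numbers can be above the number of CpG sites; in the Gria4 region fewer cytosines were used than its 16 sites hold. The region listed for Nbea had a difference of -15.2 points, which was the 66th largest in size and the 10th of 67 negative regions. It had the most DMCs of the 7, with 3 among 7 CpG cytosines, and lay 483 kb upstream of the Nbea TSS. No gene of the GENCODE basic annotation overlapped either region, and the nearest annotated TSS were those of processed pseudogenes, Gm7390 at 81.0 kb from the Gria4 region and Gm2622 at 162 kb from the Nbea region.

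The regions of the adhesion genes and of the synaptic organizer were all positive, and all were far from the gene they were listed for. For Cbln2 the difference was 13.5 points (the 116th largest in size) with 3 CpG cytosines and 1 DMC. The region spans 50 bases, at 87302272 to 87302321 on chromosome 18, and lies 590.2 kb downstream of the Cbln2 TSS. Cbln2 is a short gene of 7.17 kb, so the region is 584 kb past its end, and the nearest protein-coding TSS in GENCODE was not that of Cbln2 but that of Gm5096 at 454 kb. For Pcdh20 the difference was 12.0 points (the 178th) with 3 CpG cytosines and 1 DMC in only 22 bases, one of the shortest spans of the table (the 384th of 389). It lay 351 kb upstream of the TSS, with 1 protein-coding gene starting within 1 Mb. For Pcdh18 the difference was 10.7 points (the 307th), the smallest of the 7, with 7 CpG cytosines and 2 DMCs, and the region lay 296 kb upstream of the TSS. In GENCODE that region is inside another gene, in intron 11 of the transcript Slc7a11-205. Slc7a11 encodes the cystine and glutamate exchanger xCT, and this intron is 484 kb long. The RefSeq span of Slc7a11 does not reach the region.

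Disc1 was the only one of the 6 genes with 2 regions and the only one with a region inside its body. Both regions were negative, at -12.0 points in intron 1 and -10.9 points in intron 10 of the transcript Disc1-201, and they differed by 1.15 points. The region in intron 1 had 5 CpG cytosines and 1 DMC and lay 19.2 kb downstream of the TSS, and the region in intron 10 had 4 CpG cytosines and 1 DMC at 173 kb. The 2 regions are 154 kb apart in a gene of 208 kb, at 9.23% and 83.3% of its length. By transcript of Disc1 the intron that holds the downstream region is number 9, 10 or 11. That region also lies in exon 1 of Gm16237, a transcript antisense to Disc1, 7 bases from its annotated start, and the DNA methylation read there cannot be assigned to one of the 2 genes. In rank of size the Disc1 regions were the 23rd and the 51st of the 67 negative regions.

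**Figure D3:**
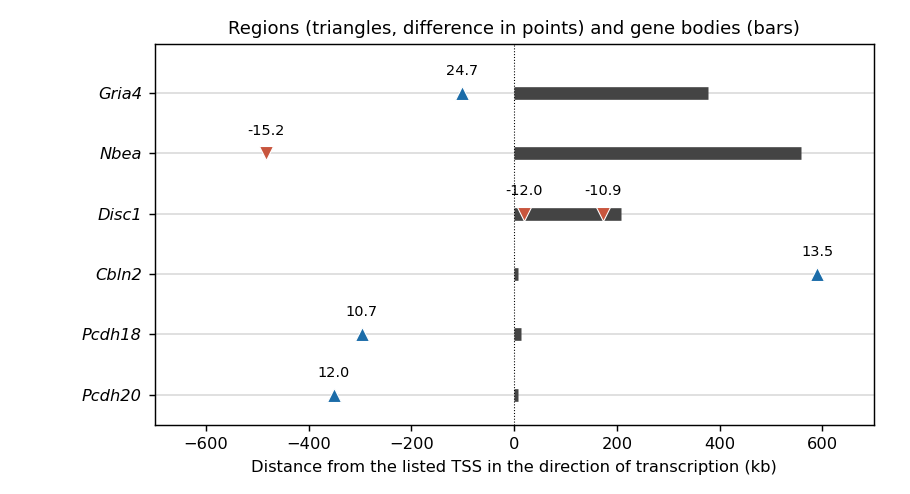
Place of the 7 regions relative to the TSS of their listed gene. The x axis is the distance from the TSS in kb in the direction of transcription, bars are the gene bodies in GENCODE, and triangles are the regions, pointing up and blue for a positive and down and red for a negative difference, with the difference in percentage points above. Only the 2 Disc1 regions lie in the body of their gene; Cbln2 lies past it, and the other 4 lie upstream, from 100.5 to 483 kb.

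The regions were far from the listed TSS in most cases. Of the 7, 6 lay over 20 kb from the listed TSS, as 60.9% of all regions did, and the same 6 lay over 100 kb from it, as 27.0% of all regions did. The median distance was 296 kb for the 7 and 35.5 kb for all. No GENCODE basic gene was overlapped by 4 of the 7 and by 51.7% of all regions. The surroundings were poor in genes: 5 of the 7 had 10 or fewer protein-coding genes with a TSS within 1 Mb, against 32.4% of all, and only the 2 Disc1 regions, with 23 each, were above the median of 16 for the table. A long distance to the listed TSS and a low number of genes nearby go together, and their part in which gene was listed was not tested.

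Other listed regions within 5 Mb numbered from 0 to 5. The Nbea and Pcdh20 regions had none. The nearest to the Gria4 region were those of Ddi1 (15.7 points, at 1.70 Mb) and Dync2h1 (15.0 points, at 1.86 Mb), a dynein of cilia, and the nearest to the Pcdh18 region was that of Mgarp (10.7 points, at 1.33 Mb), a mitochondrial protein gene. The Cbln2 region had that of Socs6 (13.6 points, at 0.900 Mb), an inhibitor of cytokine signalling, and that of 4930592I03Rik (10.7 points, at 4.29 Mb). These 5 were positive like the members they were near, and nothing is read from that where 82.8% of all regions are positive. Besides each other, the Disc1 regions had nearest to them that of Irf2bp2, a transcriptional corepressor, which was negative too (-10.6 points) at 1.44 and 1.59 Mb.

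The regions rested on different numbers of cytosines. How firm each difference is cannot be judged from these numbers, because depth and the spread between mice are unknown. Of the 7, 4 had 5 or more CpG cytosines (Gria4, Nbea, Pcdh18 and Disc1 in intron 1), as had 62.5% of all regions, and 3 had 2 or more DMCs (Nbea, Gria4 and Pcdh18), as had 30.3% of all. Gria4 ranked 39th in CpG cytosines, whereas Cbln2 and Pcdh20 were at the smallest number in the table, 3, which is the minimum of the study's methods. The median span was 81 bases for the 7 and 136 bases for all regions. A CCGG site was touched by 5 of the 7 and by 87.9% of all regions; the Cbln2 region was 7 bases and the Pcdh20 region 39 bases from the nearest one. The distance between the CCGG sites around each region was 79 bases for Nbea, 91 for Disc1 in intron 10, 128 for Pcdh18, 170 for Pcdh20, 202 for Cbln2, 278 for Gria4 and 1067 for Disc1 in intron 1. The last is long for a fragment of an RRBS library, and its region lies at one end of it. The labels state that the DNA was briefly sonicated before it was cut.

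The regions differed from one another in how much of their sequence was repetitive. Over 50% of the bases were repeat-masked in 4 of the 7 (Pcdh18 and Pcdh20 at 100% each, Gria4 at 93.6% and Nbea at 55.6%), and in 27.8% of all regions. The Cbln2 region and both Disc1 regions had 0% masked. Which repeat family each masked region belongs to was not examined. Among the 4 positive members 3 were masked, and among the 3 negative ones 1 was, while of all positive regions 30.4% were, and of all negative ones 14.9%. As a measure of copy number, exact copies of each stretch of 30 bases were counted in the reference genome on both strands. Regions under 100 bases were widened to 100 bases around their centre for this count. The median was 587 copies for Pcdh18 and 79 for Gria4, and 1 for each of the other 5. Multi-copy sequence by this measure made up 22.4% of the table, and Pcdh18 and Gria4 were the 2 members in it. In the Pcdh20 window, most of which lies outside its 22 bases, 43.7% of stretches had 2 or more copies, up to 3550. In the Nbea window 29.6% had, up to 17, and in the Cbln2 and both Disc1 windows 0% had.

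**Figure D4:**
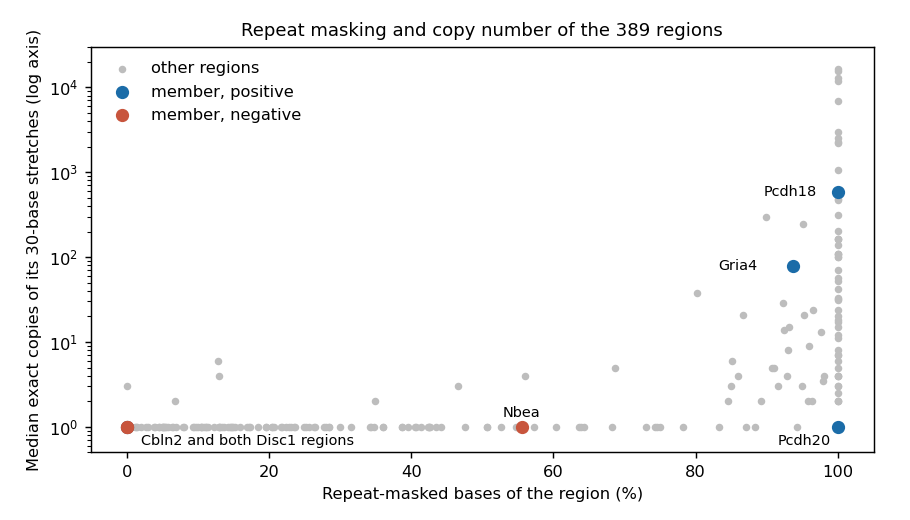
Repeat-masked share of the region in percent (x axis) and median number of exact genome copies of its 30-base stretches (y axis, log scale) for the 389 regions, grey for other regions and blue or red for positive or negative members. Pcdh18 at 587 and Gria4 at 79 copies stand above the others of the 7, which are at a median of 1 copy each. Regions under 100 bases were widened to 100 bases for the copy count.

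Multi-copy sequence bears on how well a short bisulfite read can be placed. It also bears on whether CpGs of C3H/HeN mice at other copies were counted at the listed one. Its part in the differences of Pcdh18, Gria4, Pcdh20 and Nbea was not tested. In the Gria4 region the median stretch had at least 1 copy on 20 chromosomes, with the region's own place included. With stretches of 50 bases its median fell to 5 copies. In the Pcdh18 region the same held for 21 chromosomes, and with stretches of 50 bases the median was 12 copies. Measured in 500 bases around the region, the Gria4 sequence also had a high ratio of observed to expected CpGs, 0.764, which stood at the 97.0 percentile of the 389 regions. The Disc1 region of intron 1 had a GC content of 67.1%, at the 94.5 percentile. The motif CACGTG, the palindromic E-box whose central CpG can be methylated, occurred in 1 of the 7 (Gria4, near its start) and in 4.88% of all regions, each searched over its own length, so that longer regions had more room for it.

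Some of the repeat sequence was held in common with other regions of the table. For this comparison every region under 100 bases was widened to 100 bases around its centre. So widened, 2 of the 7 (Pcdh20 and Pcdh18) and 20.8% of all regions shared a stretch of 30 bases with at least 1 other region. The 100 bases centred on the Pcdh20 region shared such stretches with 10 other regions, with differences from 10.1 to 17.9 points. These 10 were positive, as were 77 of all 81 regions that share a stretch and 82.8% of the whole list, so nothing is read from their sign. They were listed for Gria2, Lrrtm1, Kcnd2, Tnc, Acot10, Clnk, Vmn1r65, Olfr1324, Rprl2 and Gm7134, on several chromosomes. Gria2 encodes the AMPA receptor subunit GluA2, Lrrtm1 a postsynaptic adhesion protein and Kcnd2 a neuronal potassium channel, whereas the Vmn1r65 and Olfr1324 genes are chemoreceptor genes. The run that occurred in 6 of these 10 begins at the last base of the Pcdh20 region, chr14:88822409-88822442, and the Pcdh18 region shares a longer one, chr3:50053863-50053904, with 1 other region. They are shown, on the plus strand with CpG letters in capitals, because these regions, or the ground next to them, have them in common. Apart from its first base the Pcdh20 run as shown lies outside the region. The longest runs shared with the windows of Tnc, Clnk, Vmn1r65, Olfr1324, Acot10 and Kcnd2 had 31 to 40 bases. They began inside the Pcdh20 region and took in the CpG at its end, which is 1 of its 2 CpG sites.
Pcdh20, shared run: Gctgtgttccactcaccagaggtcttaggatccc
Pcdh18, shared run: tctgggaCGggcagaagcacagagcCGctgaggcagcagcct
The run of 42 bases in the Pcdh18 region, with 2 CpGs, recurs in the 100 bases centred on another region, listed for 9330111N05Rik on chromosome 13. That region has the largest difference of the table, 31.5 points. It is shorter than 100 bases, and whether it holds the whole run was not examined. Regions that share a repeat are not independent of each other where reads of one copy can be placed at another, and whether that occurred was not tested.

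The wider set of neuronal genes gives the setting for the 6. In all, 8 lists of 212 genes were drawn up around the members. They covered glutamate receptors and their auxiliary subunits, trans-synaptic organizers, protocadherins outside the clusters and cadherins. The others were neuronal adhesion proteins of the immunoglobulin family (with Cntnap4 placed among them), Disc1 and its known binding partners, BEACH domain proteins and postsynaptic scaffolds. Of these genes, 13 were listed for 14 regions, 9 positive and 5 negative. Without the members there were 7 regions, 5 positive and 2 negative, against 82.8% positive in the table. How many of the 212 genes had CpGs that were covered is not known from the table, so no share of them can be set against it.

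Among the 39 glutamate receptor genes, 4 were listed: Gria4, Grin2d (10.6 points, in an exon of the gene, with 14 CpG cytosines and 3 DMCs), Grm4 (-10.4 points, in an intron) and Gria2 (10.1 points). The Gria2 region was 180.4 kb from the TSS, 95.0% repeat-masked and had 243 copies, beside 93.6% and 79 copies for Gria4. Among the 52 organizers, the 2 listed were Cbln2 and Lrrtm1 (10.2 points), whose region was fully masked, had 488 copies and lay 1646 kb from the TSS. Of 14 protocadherin symbols outside the clusters, the 2 listed were Pcdh18 and Pcdh20. None of the 19 cadherin genes was listed, but the region listed for Hsbp1 (18.3 points) lay in an intron of Cdh13, a cadherin anchored to the membrane by a lipid. Of the 33 genes on the list of immunoglobulin-family adhesion proteins, Cntn4, a contactin, had a difference of -22.8 points on 3 CpG cytosines in an intron. This was the 6th largest in size of the table. Cntnap4 was on that list too, with 10.1 points, though its contactin-associated protein is not of the immunoglobulin family. The Disc1 partners had no region besides those of Disc1 itself, and of the 9 BEACH domain genes Nbea was the one listed. Of the 22 scaffold genes, Grip1, whose protein binds AMPA receptors, had 13.9 points in an intron.

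**Figure D5:**
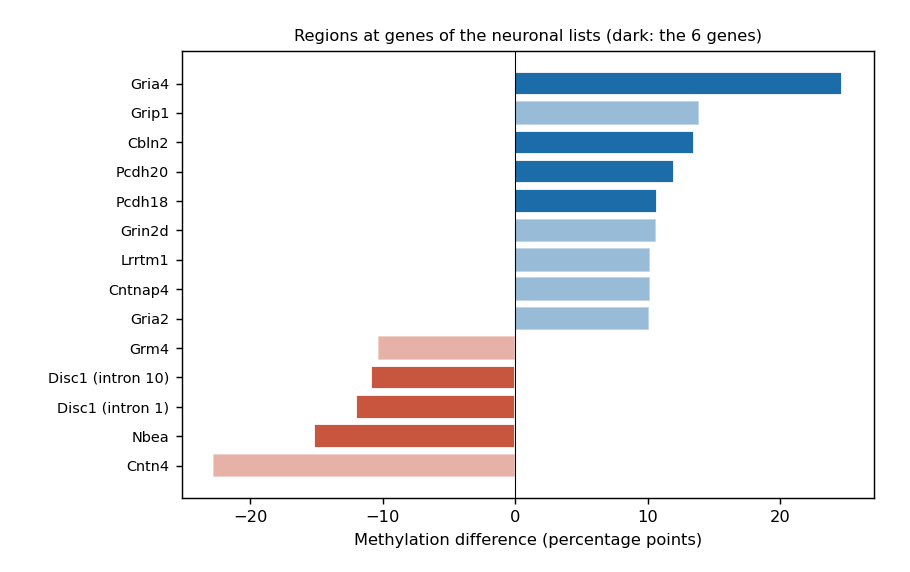
Methylation difference in percentage points (x axis) of the regions at genes of the 8 neuronal lists (y axis). Dark bars are the 6 genes and light bars the other genes of the lists, blue positive and red negative, for the 14 regions listed under a gene of the lists. Gria4 at 24.7 and Cntn4 at -22.8 points are the extremes.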

How the data were processed

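Sperm DNA of 5 control and 5 arsenic F1 mice was analysed by RRBS. In the study's methods and the submitters' processing notes, Trim Galore was used for trimming, Bismark for mapping to mm10, methylKit for DMCs and eDMR for DMRs. The processing notes name bedtools 2.25.0 without a role, while the study's methods used bedtools to locate repeats that hold CpGs and to extract their sequences. Only CpGs read at least 10 times in every sample were used. A DMR needed at least 3 CpGs, at least 1 DMC and a statistically significant difference of over 10 percentage points between the groups. The authors deposited a table of the called regions with its difference in percent methylation (percentage points), whole-number CpG and DMC counts and TSS distances. That table is from the study's replication experiment, for which the study refers back to the same RRBS methods. Exposure in that experiment is not described separately in the study's methods. The table is the authors' own comparison of the groups, and its difference column was used because no other measurement was at hand.

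The members and the gene lists were chosen with earlier results of these data known. Rows were reduced to distinct positions. The 7 member regions, the list genes with a region (up to 4 per list), list genes whose body a region overlaps, the gene that holds a member region, and up to 2 other regions within 5 Mb were named; regions that share a repeat with a member were added after values had been seen. A result at 1 list gene is not reported here. Masked bases, CpGs, CCGG sites and exact copies (stretches of 30 bases, windows of at least 100 bases, 2 or more copies called multi-copy, 21 chromosomes) came from GRCm38. Gene overlaps, nearest TSS and genes within 1 Mb came from GENCODE basic. The spans of the member genes and the introns that hold their regions came from the comprehensive GENCODE set. Of 212 list symbols 210 were found in GENCODE basic. The copy count was checked on simulated data. Depth per mouse is not given in the sources used here. Python 3.11.15 with numpy 2.4.6, pandas 2.3.3, numba 0.67.0 and matplotlib 3.10.9 was used.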

Additional observations from a re-analysis of the deposited data

How the results depend on the processing

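Of 22 alternative values, 15 were labelled as unmoved and 7 as moved. Shares and percentiles were labelled as unmoved inside the exact binomial interval of the main value, and counts by their ratio to the main count. That interval is wide for a share of 7 or 14 regions, so an unmoved share there shows little about stability. The median size of the 7 regions stood at the 54.9 percentile of all regions, whereas the median of the 4 positive members stood at 60.6 among positive regions, that of the 4 members with 5 or more CpGs at 74.5 among such regions, and that of the 3 with 2 or more DMCs at 80.9. These settings change both the members and the regions ranked. The number over 50% repeat-masked was 4, and 2 when only fully masked regions were counted. The number in multi-copy sequence was 2, and 4 both with stretches of 20 bases and when any multi-copy stretch was enough (Nbea and Pcdh20 were added). The positive share of the 14 regions at list genes was 64.3%, and 33.3% at 15 points or more, where 3 regions were left. The RefSeq alternative for gene bodies was chosen after seeing the data and left 2 regions inside a gene in place of 3. Leaving out single mice was not run. No paired analysis was possible because the table holds no value per mouse. Depth behind each difference is unknown.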
